A study of Homo sapiens with 4 samples.

Results

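The genes examined here are 10 feedback and output genes of the MAP kinase pathway that lies below the receptor tyrosine kinase FLT3: the MAP kinase phosphatase genes DUSP4, DUSP5 and DUSP6, the adaptor genes SPRY2, SPRY4, SPRED1 and SPRED2, the transcription factor genes ETV5 and EGR1, and the kinase gene PIM1. They were chosen by gene symbol, with earlier results of these data known. Each of the 10 had a single probe set, and 9 belonged to the 12519 protein-coding genes tested, SPRED1 being too dim. Expression was measured in MV4-11, an established human acute myeloid leukaemia line of monocytic character that carries a KMT2A fusion and an internal tandem duplication of FLT3, which keeps the receptor signalling without ligand. Cells were transduced with a short hairpin RNA, and then kept in 3 µM doxycycline for 24 h. The RUNX1 hairpins are labelled moderate, profound 1 and profound 2, and the control hairpin is directed at luciferase, so that all 4 groups share the transduction and the doxycycline. Each hairpin was measured on 1 whole-transcript array, and the values given below are the authors' log2 RMA signals.

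FLT3 signals through RAS, RAF and MEK to the kinase ERK, and through STAT5. Active ERK switches on immediate early transcription factors such as EGR1 and, with ETS factors, a set of genes whose products turn the pathway down: dual-specificity phosphatases that remove phosphate from ERK, Sprouty proteins that act between receptor and RAF, and SPRED proteins that bring the RAS inactivator neurofibromin to the membrane. Transcript levels of this set are widely used as a readout of ERK activity, and in FLT3-mutant leukaemia PIM1 is a classical STAT5 target. Neither kinase activity nor phosphorylation was measured on these arrays.

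With 1 array per hairpin there is no replicate, no difference carries a p-value or a replicate error, and precision is limited by the number of arrays. A gene was called higher or lower where 2 arrays differed by at least 1.5-fold, which is 0.58 on the log2 scale. Each difference is set beside a yardstick, which is its robust SD (the median absolute deviation, scaled to an SD) among tested genes of like level, and the share of tested genes that lay at least as far out in the same direction. The yardstick holds noise and real differences together. The targeted gene was examined first. The probe set of RUNX1, which it shares with LOC100506403, read 4.33 under the hairpin labelled moderate, 4.07 under profound 1 and 4.04 under profound 2, against 4.27 under the control hairpin. Both arrays labelled profound read lowest. The differences from control were 0.06, -0.19 and -0.22, smaller than the robust SDs at this level (0.23, 0.28 and 0.25). Whether a graded knockdown took place cannot be told from this probe set, so every direction below is one between labels. The samples' own descriptions name RUNX2 for profound 1 and RUNX3 for profound 2 as the target, whereas titles and genotypes name RUNX1. They are called RUNX1 hairpins here after the titles and genotypes. Of 10 measured myeloid markers, between 9 and 10 read above the median of the table (3.08) in each array, with summed levels of 74.5, 74.2 and 73.5 in the arrays labelled moderate, profound 1 and profound 2 and 73.3 in control. Of the markers of other cell types, between 2 and 3 of 7 measured T and NK cell genes read above that median in each array, between 2 and 3 of 5 B cell genes, 2 of 4 erythroid genes and 1 of 5 stromal genes. Those above it in every array were NKG7, CD8A, CD79A, CD79B, KLF1, EPOR and COL1A1, whereas the T cell receptor component genes CD3D, CD3E and CD3G, the B cell gene MS4A1, the haemoglobin gene HBB and the stromal gene DCN were below it in every array. The summed levels of the T and NK cell genes were 22.3, 21.7 and 22.0 in the arrays labelled moderate, profound 1 and profound 2 and 21.6 in control, and those of the B cell genes 16.0, 16.1 and 15.5, against 15.3 in control. The erythroid sums were 13.5, 13.5 and 13.6, against 13.3 in control, and the stromal sums 12.4, 12.4 and 11.9, against 12.4 in control. The part of such cells or transcripts in the results was not tested.

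Among the 10 genes, DUSP4 was below control under all 3 RUNX1 hairpins. DUSP6 read below control in both arrays labelled profound but not in that labelled moderate. EGR1 read below control in all 3 and lowest in profound 1, and PIM1 was well below the other arrays in profound 1. Against control, DUSP4 passed the size rule in all 3 arrays, EGR1 and PIM1 only in profound 1, and DUSP6 in none. SPRY2 lay slightly below control in all 3. DUSP5, SPRY4, SPRED2 and ETV5 stayed within 0.25 log2 units of control in every array. FLT3 itself read 9.43, 9.46 and 9.28 in the arrays labelled moderate, profound 1 and profound 2, against 9.43 in control. In a bulk sample, fewer cells that express a gene and less RNA of it per cell cannot be told apart.

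**Figure D1:**
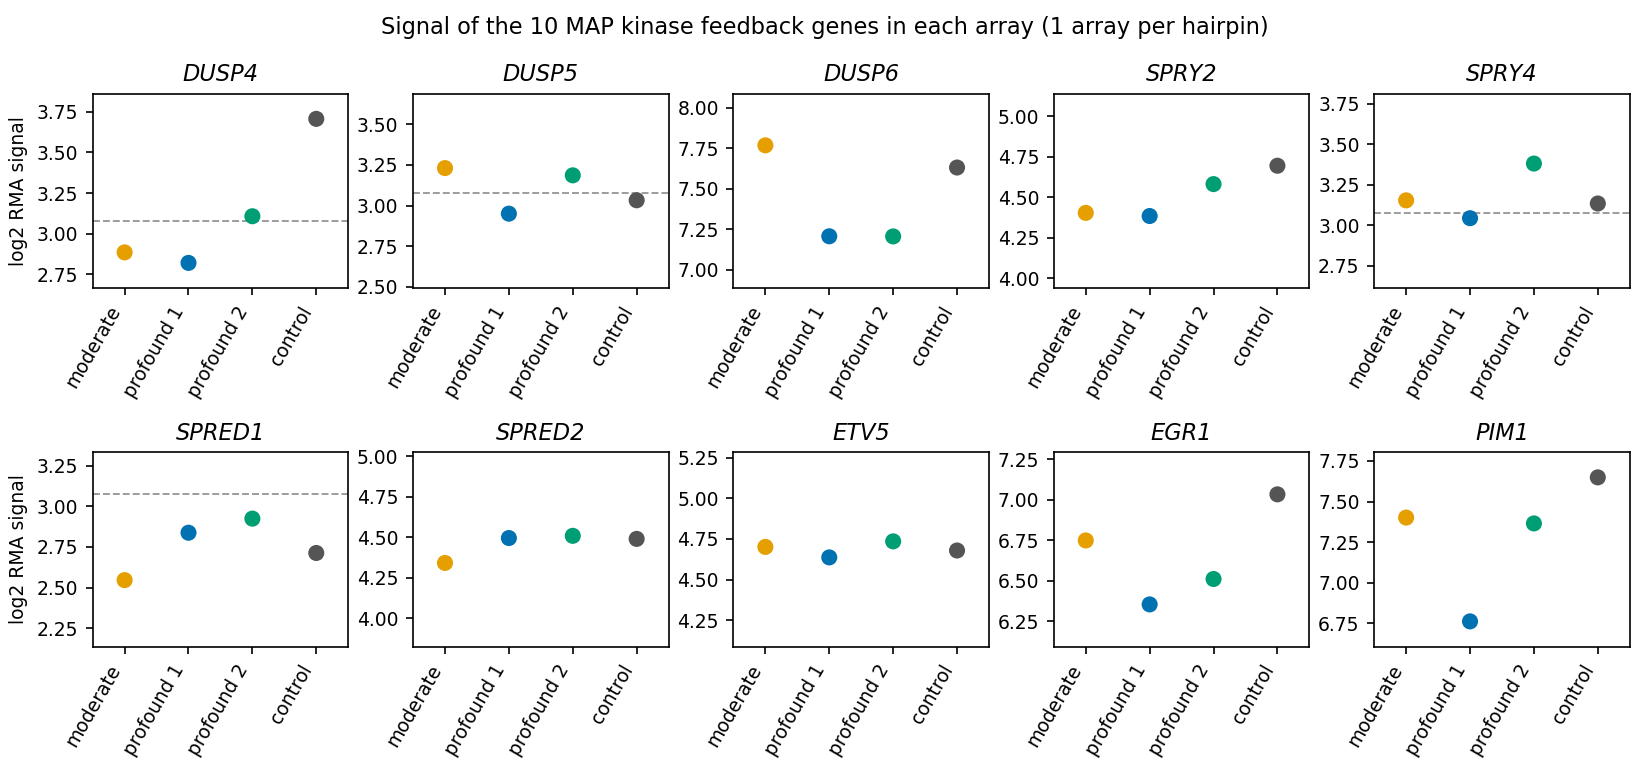
Log2 RMA signal (vertical axes, each spanning 1.2 log2 units) of the 10 genes in the arrays labelled moderate, profound 1 and profound 2 and in the control array (horizontal axes), with 1 point per array and the median of the table (3.08) as a dashed line. DUSP4, EGR1 and PIM1 are highest in control, and DUSP6 reads 7.21 in both arrays labelled profound.

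Among the phosphatase genes, DUSP6 encodes the cytoplasmic phosphatase that acts on ERK with little activity toward the other MAP kinases. It read 7.77 under the hairpin labelled moderate, 7.21 under profound 1 and 7.21 under profound 2, against 7.63 in control. Both arrays labelled profound thus lay below both others. Relative to control DUSP6 was at 0.14, -0.42 and -0.42 log2 units, where the robust SD at this level was 0.13, 0.26 and 0.15. Of the tested genes, 8.36% were at least as far below control in profound 1 and 3.01% in profound 2. Against the array labelled moderate, DUSP6 was at -0.56 in profound 1 and -0.56 in profound 2, or 1.47-fold and 1.48-fold lower, just short of the size rule. Here 3.99% and 1.91% of the tested genes were as far below. Both comparisons with moderate share that array, as both with control share the control array. Between profound 1 and profound 2 themselves, the DUSP6 signal differed by 0.0008 log2 units.

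DUSP4 encodes a nuclear phosphatase of ERK and of the stress-activated MAP kinases. It read 2.88 under the hairpin labelled moderate, 2.82 under profound 1 and 3.11 under profound 2, against 3.71 in control. The differences were -0.82, -0.89 and -0.60 log2 units, which correspond to 1.77-fold, 1.85-fold and 1.52-fold lower signals, with robust SDs of 0.25, 0.27 and 0.25. DUSP4 passed the size rule in all 3 arrays, narrowly in profound 2. Of the tested genes, 0.0399% lay as far below control under the hairpin labelled moderate, 0.927% under profound 1 and 0.919% under profound 2. All 3 values rest on the same control reading. DUSP4 was dim: it exceeded the median of the table in 2 of 4 arrays, control and profound 2. Without the control array, the arrays labelled profound 1 and profound 2 differed from that labelled moderate by -0.06 and 0.22, within the robust SDs of 0.26 and 0.27. DUSP5, a nuclear ERK phosphatase, read 3.23, 2.95 and 3.19 in the arrays labelled moderate, profound 1 and profound 2, against 3.03 in control. Its differences of 0.20, -0.08 and 0.15 were below the robust SDs of 0.25, 0.27 and 0.25, near the table median.

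The immediate early gene EGR1 encodes a zinc finger transcription factor that ERK induces within minutes through serum response factor and its ETS partners. It read 6.75 under the hairpin labelled moderate, 6.35 under profound 1 and 6.51 under profound 2, against 7.03 in control. All 3 RUNX1 hairpin arrays lay below control, and both arrays labelled profound below that labelled moderate. Relative to control EGR1 was at -0.28, -0.68 and -0.52 log2 units, with robust SDs of 0.15, 0.28 and 0.18. The value in profound 1 is a 1.60-fold lower signal and passed the size rule, whereas that in profound 2 (1.44-fold) did not. Of the tested genes, 6.13%, 2.63% and 1.44% were at least as far below control. Against the array labelled moderate, EGR1 was at -0.39 in profound 1 and -0.24 in profound 2, at or below 2 times the robust SD (0.24 and 0.19).

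PIM1 encodes a serine/threonine kinase that promotes survival and cell-cycle progression. It read 7.40 under the hairpin labelled moderate, 6.76 under profound 1 and 7.37 under profound 2, against 7.65 in control. Profound 1 stood apart from the other 3 arrays, which lay within 0.28 of each other. Relative to control PIM1 was at -0.25, -0.89 and -0.28 log2 units, with robust SDs of 0.13, 0.26 and 0.15. In profound 1 PIM1 was thus 1.85-fold lower, and 0.935% of the tested genes lay at least as far below control. PIM1 was also lower in profound 1 than in the array labelled moderate (-0.64 log2 units, 1.56-fold) and than in profound 2 (-0.60, 1.52-fold). It was the 1 member called in either of these comparisons. In each, 2.65% of the tested genes lay as far below.

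**Figure D2:**
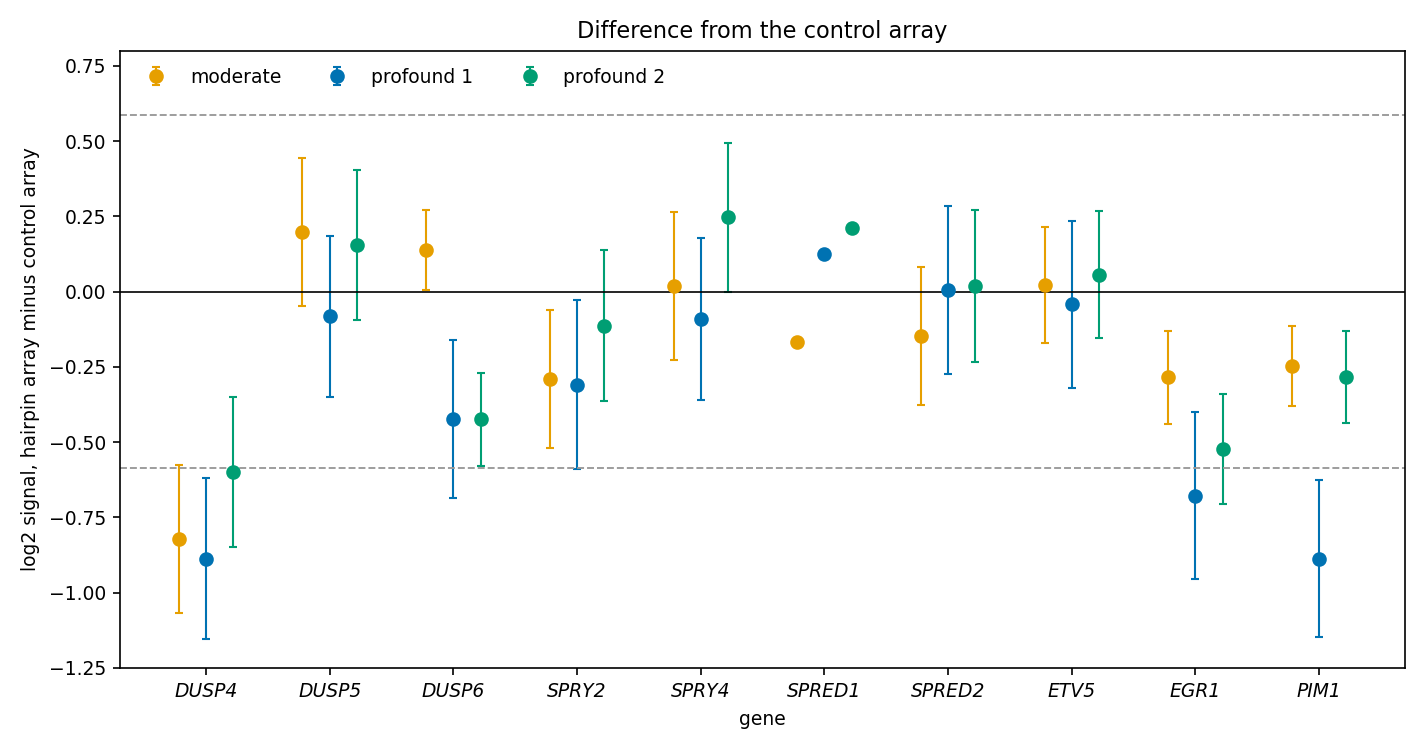
Difference in log2 signal between each RUNX1 hairpin array and the control array (vertical axis) for the 10 genes (horizontal axis), with bars of 1 robust SD of that difference among tested genes of like level and dashed lines at 1.5-fold. The bars are no replicate error, and SPRED1 has none because it was not tested. DUSP4 lies past the lower line in all 3 arrays, EGR1 and PIM1 in profound 1.

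The base sequences before the start sites of EGR1, DUSP6 and PIM1 are shown, as 3 of the 4 genes the account above turns on. They are the RefSeq promoter windows of GRCh38.p14, from 250 bases before to 50 bases after the start of the gene, and 7 of the 10 genes have one. Capitals mark the motifs searched on both strands. These were the RUNX motif (TGTGGT or TGCGGT), an ETS motif (CCGGAAG), the CArG box bound by serum response factor, a STAT motif (TTCNNNGAA), the AP-1 motif (TGANTCA), the cyclic AMP response element (TGACGTCA) and a TATA box (TATAAA).
EGR1, chr5:138465229-138465528, plus strand: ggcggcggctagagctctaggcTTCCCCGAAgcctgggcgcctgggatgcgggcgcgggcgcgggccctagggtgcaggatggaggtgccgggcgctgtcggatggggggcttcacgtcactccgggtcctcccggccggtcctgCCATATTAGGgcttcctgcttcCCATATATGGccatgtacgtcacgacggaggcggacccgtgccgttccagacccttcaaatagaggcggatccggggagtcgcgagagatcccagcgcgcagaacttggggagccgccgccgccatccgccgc
DUSP6, chr12:89352452-89352751, minus strand: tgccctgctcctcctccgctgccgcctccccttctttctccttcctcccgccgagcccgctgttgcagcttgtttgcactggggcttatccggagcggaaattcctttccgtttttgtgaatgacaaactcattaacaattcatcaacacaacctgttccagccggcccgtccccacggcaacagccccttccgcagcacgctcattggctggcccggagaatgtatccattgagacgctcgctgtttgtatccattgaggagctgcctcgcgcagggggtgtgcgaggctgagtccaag
PIM1, chr6:37169902-37170201, plus strand: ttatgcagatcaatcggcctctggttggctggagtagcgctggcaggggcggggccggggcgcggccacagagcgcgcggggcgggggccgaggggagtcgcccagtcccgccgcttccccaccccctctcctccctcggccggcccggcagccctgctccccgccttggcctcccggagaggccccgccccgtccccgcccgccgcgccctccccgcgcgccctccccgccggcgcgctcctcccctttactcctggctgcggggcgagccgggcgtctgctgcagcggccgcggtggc

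The EGR1 window held 2 CArG boxes, whose first bases lie at positions -105 and -83 from the start site, and 1 STAT motif, at -228. Of 27305 RefSeq promoter windows of this length, 1.29% held a CArG box and 7.88% a STAT motif. The DUSP6 and PIM1 windows held none of the 7 motifs, nor did those of SPRY2, SPRY4, SPRED1 and SPRED2. The RUNX motif was in 19.4% of all windows and in 0 of the 7 read here, and the ETS motif in 10.7% of all windows. The AP-1 motif was in 7.76%, the cyclic AMP response element in 1.98% and the TATA box in 12.0%. A match is a description of these letters and shows no binding. The ETS motif was searched in 1 strict spelling, so a window without it can hold other ETS sites. The printed windows of EGR1, DUSP6 and PIM1 each hold the shorter ETS core GGAA on one strand or the other. The PIM1 window was 79.7% G and C and that of EGR1 69.3%, against 58.3% for DUSP6 and a median of 58.3% over all windows.

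The Sprouty genes encode inhibitors of receptor tyrosine kinase signalling. SPRY2 read 4.40 under the hairpin labelled moderate, 4.38 under profound 1 and 4.58 under profound 2, against 4.69 in control. It was below control in each, at -0.29, -0.31 and -0.11 log2 units. These values slightly exceed the robust SD in the array labelled moderate (0.23) and in profound 1 (0.28) and are smaller than it in profound 2 (0.25). SPRY4 read 3.15, 3.04 and 3.38 in the arrays labelled moderate, profound 1 and profound 2, against 3.13 in control. Its highest reading was in profound 2 (0.25 above control), and it lay near the median of the table throughout. The SPRED genes encode Sprouty-related adaptors with an EVH1 domain. SPRED2 read 4.34, 4.50 and 4.51 in the arrays labelled moderate, profound 1 and profound 2, against 4.49 in control, a range over the 4 arrays of 0.17. SPRED1 read 2.55, 2.84 and 2.92 in those arrays, against 2.71 in control. These values are below the median of the table in all 4 arrays, so SPRED1 was not counted. ETV5, an ETS transcription factor of the PEA3 group, was the least variable of the 10 genes. It read 4.70, 4.64 and 4.73 in the arrays labelled moderate, profound 1 and profound 2, against 4.68 in control, a range of 0.10.

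Counted over the tested genes of the set, 1 of 9 was at least 1.5-fold lower than control in the array labelled moderate (DUSP4), where 0.447% of all tested genes were lower at that size. In profound 1, 3 of 9 were lower (DUSP4, EGR1 and PIM1), against 4.04% of all tested genes. In profound 2, 1 of 9 was lower (DUSP4), against 1.01%. None of the 9 was called higher in any of these, where 0.863%, 2.68% and 1.2% of all tested genes were. With the arrays centred on their medians, 74 genes were higher and 81 lower in the array labelled moderate, in place of 108 and 56. DUSP4 passed the filter on dim genes in part through its reading in control, so its call is not independent of the filter. The set was chosen with earlier results of these data known, so its counts beside these shares are a description only. At 2-fold none of the 9 was called in either direction, where 0.0639%, 0.799% and 0.0719% of all tested genes were. The median difference of all 10 genes from control was -0.16 log2 units under the hairpin labelled moderate, -0.20 under profound 1 and -0.05 under profound 2, and over the 9 tested genes it was -0.15, -0.31 and -0.11. The medians over all tested genes were 0.01, -0.00 and -0.00. Against the array labelled moderate, 1 of 9 was lower in profound 1 (PIM1), where 3.49% of all tested genes were, and 0 of 9 in profound 2, where 1.6% were. The median differences of the 9 genes in these comparisons were -0.11 and 0.03, and 1.65% and 1.04% of all tested genes were higher. In profound 1 against profound 2, 1 of 9 was lower (PIM1), against 2.95% of all tested genes, and the median was -0.20. Here 2.06% of all tested genes were higher. With centring, 267 tested genes were higher and 357 lower in profound 1 than in the array labelled moderate, in place of 206 and 437, and 197 and 145 in profound 2, in place of 130 and 200. At 2-fold the 2 comparisons with moderate and that between both profound labels held 0 members, where 0.399%, 0.232% and 0.495% of all tested genes were called in either direction.

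**Figure D3:**
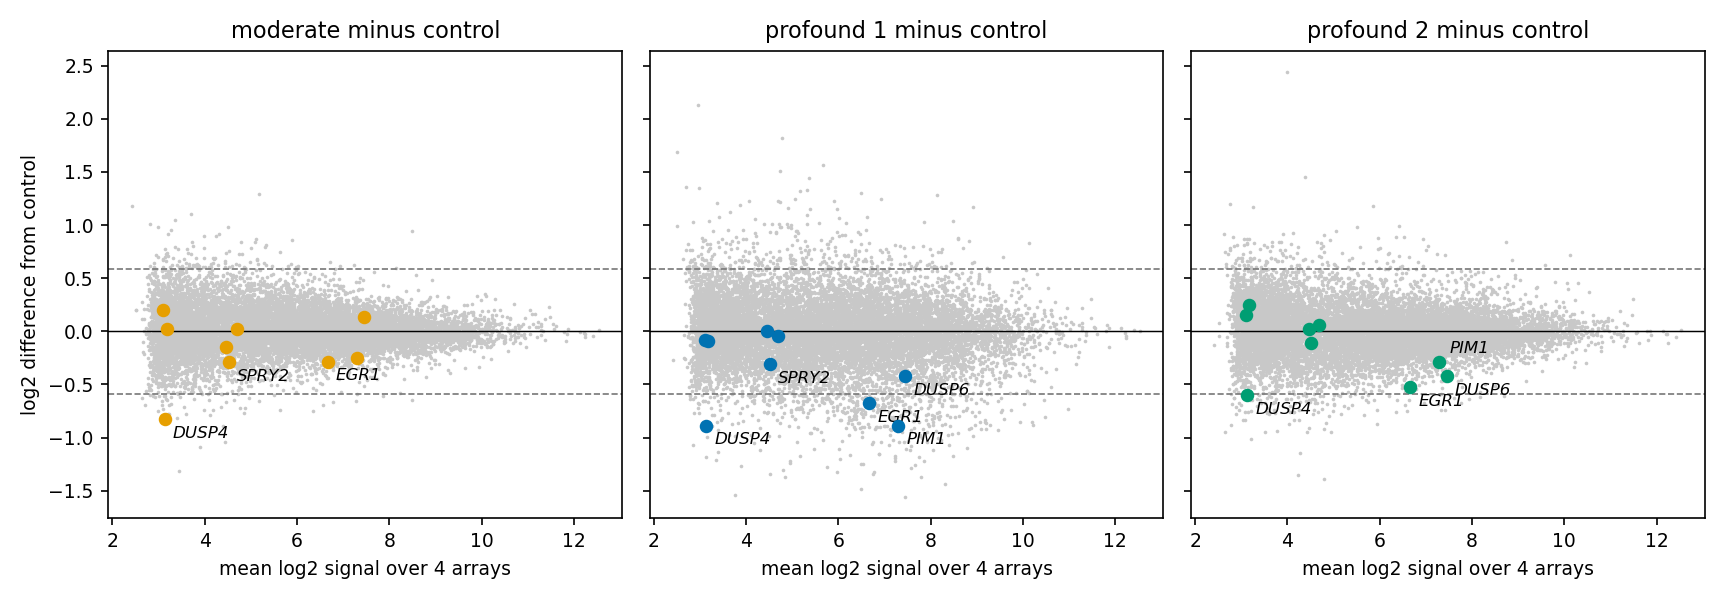
Difference in log2 signal from control (vertical axes) against mean log2 signal over the 4 arrays (horizontal axes) for the 12519 tested genes (grey) and the 9 tested feedback and output genes (coloured), 1 panel for each RUNX1 hairpin array, with dashed lines at 1.5-fold. Genes of the set more than 0.28 from control are named. DUSP4 lies at the dim end in each panel, and the spread of all genes is wider in profound 1.

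Profound 1 differed from control more than the other arrays did, over all tested genes (robust SD 0.26, against 0.17 for moderate and 0.19 for profound 2). Genes of entry into S phase were lower with it. Of 16 such genes, 14 were at least 1.5-fold lower than control in profound 1, with a median of -0.89 log2 units, against 0 in the array labelled moderate (median -0.18) and 1 in profound 2 (median -0.14), the chromatin regulator gene UHRF1 at -0.61. Of all tested genes, 4.04% were lower at that size in profound 1, 0.447% in the array labelled moderate and 1.01% in profound 2. The cyclin gene CCNE2 was at -0.52, -1.55 and -0.03 in the arrays labelled moderate, profound 1 and profound 2, CDC6 at -0.43, -1.29 and -0.12, and E2F1 at -0.25, -1.35 and -0.06. The part of cell-cycle state in the lower PIM1 and EGR1 signals of profound 1 was not tested. In profound 2, 15 of the 16 genes of S phase entry were below control, and all 16 were in the array labelled moderate, mostly by small amounts. DUSP6 was as low in profound 2 as in profound 1, EGR1 was at -0.52 and PIM1 at -0.28. The part of cell-cycle state in these values was not tested either.

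Genes with the profile most like that of a member were sought by the root mean square distance between profiles over the 4 arrays, each centred on its own mean. For DUSP4, the gene with the widest range (0.89), they were the organic anion transporter gene SLCO4A1 (distance 0.07), CABLES1, which encodes a CDK-binding protein (0.09), the cytokine receptor gene IL20RB (0.10), ARL6, a small GTPase gene of cilia (0.10), and SOWAHA (0.11). SLCO4A1 was at -0.65, -0.71 and -0.49 from control in the arrays labelled moderate, profound 1 and profound 2, and CABLES1 at -0.57, -0.74 and -0.51. In control, SLCO4A1 read 5.64, CABLES1 6.44, ARL6 4.18, IL20RB 3.89 and SOWAHA 3.17. SOWAHA was below the table median in the other 3 arrays, and IL20RB in that labelled moderate (3.07). PIM1 has a range equal to that of DUSP4 at 2 decimals and was added after its values were seen. Its closest genes were the mitotic cyclin gene CCNB1 (distance 0.02), the replication gene GINS4 (0.02), the proliferation antigen gene MKI67 (0.02), PRAMEF22 (0.02) and the origin recognition gene ORC6 (0.02). CCNB1 was at -0.24, -0.85 and -0.27 from control and MKI67 at -0.26, -0.88 and -0.33, beside -0.25, -0.89 and -0.28 for PIM1. With 4 points a profile, among 12519 genes, such likeness is a description of these arrays.

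Other ERK output and immediate early genes did not share one direction. Of 27 tested, 0 were called in the array labelled moderate, 2 were lower in profound 1 and 1 was lower in profound 2, with medians of -0.05, -0.10 and 0.08. Over all tested genes 4.04% were lower in profound 1 and 1.01% in profound 2, and each of these counts rests on 1 or 2 genes. In the array labelled moderate, 1.31% of all tested genes were called in either direction. Against that array, 2 of the 27 were higher and 2 lower in profound 2, where 1.04% and 1.6% of all tested genes were. In profound 1 against that array, 1 of the 27 was higher and 0 lower, where 1.65% and 3.49% were. The PEA3 group gene ETV4, a relative of ETV5, was at -0.33, -0.66 and -0.47 log2 units in the arrays labelled moderate, profound 1 and profound 2, below control in each. SRF, which encodes serum response factor, was at -0.28, -0.66 and 0.07, lower in profound 1 by 1.5-fold and above control in profound 2. PHLDA1 was at -0.53, -0.37 and -0.62, and RGS16, a brake on G protein signalling, at -0.11, -0.56 and -0.18. EGR3, a relative of EGR1, was at -0.51, 0.11 and 0.21 and read 2.70, 3.33 and 3.42 against 3.21 in control, near the table median. HBEGF, an EGF receptor ligand gene, was at -0.47, -0.39 and 0.34, and ZFP36L1, an mRNA decay factor gene, at -0.15, 0.04 and -0.48. FOS, the classical immediate early gene, was at 0.07, 0.26 and 0.15, so that it lay above control where EGR1 lay below. MYC was at -0.05, -0.13 and 0.15 and CCND1, the cyclin D1 gene, at 0.12, 0.25 and 0.31.

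The other MAP kinase phosphatase genes had 6 tested members, 1 of which (DUSP7) also stands in the ERK output list, and 0 were called in any of the 3 comparisons with control. Over all tested genes 1.31%, 6.73% and 2.21% were called in either direction in the arrays labelled moderate, profound 1 and profound 2. With 6 genes, a count of 0 lies near these shares. DUSP1, a phosphatase of p38, JNK and ERK, was at 0.19, 0.05 and -0.27 in the arrays labelled moderate, profound 1 and profound 2. DUSP10, a phosphatase of p38 and JNK, was at 0.39, 0.09 and -0.00. DUSP8 was at 0.29, 0.29 and 0.18, DUSP2 at -0.08, -0.31 and 0.05, and STYXL1, a catalytically inactive relative, at 0.08, 0.50 and -0.09. The medians were 0.13, 0.07 and 0.02. Of 8 tested dual-specificity phosphatase genes outside the MAP kinase group, 0 were called, again near those shares, with medians of -0.02, 0.04 and -0.11. The most distant from control was DUSP18 in the arrays labelled moderate (0.44) and profound 1 (0.41), and DUSP22 in profound 2 (-0.23).

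Of the cascade between FLT3 and ERK, 23 tested genes included 0 called in any of the 3 comparisons with control, with medians of 0.10, 0.00 and -0.06. Over all tested genes 1.31%, 6.73% and 2.21% were called in either direction in these comparisons. At those shares, lists of 23 or 10 genes would hold few or none called. The ubiquitin ligase gene CBL, whose product removes active receptors, was at 0.12, 0.53 and 0.11 in the arrays labelled moderate, profound 1 and profound 2, and its relative CBLB at 0.41, 0.42 and -0.17. ELK3, an ETS factor gene of the group that partners serum response factor, was at 0.11, 0.58 and 0.41, just short of the size rule in profound 1. HRAS was at 0.19, -0.06 and 0.50. Of 10 tested genes of RAS inactivators and related regulators, 0 were called against control, with medians of 0.03, -0.06 and -0.08. The RAS GTPase-activating protein gene RASA2 was at -0.51 in profound 1, RASAL1 at 0.40 in the array labelled moderate and 0.45 in profound 2, and RASAL3 at -0.41 in profound 2. Against the array labelled moderate, RASAL3 was called lower in profound 2 (-0.75), where 1.6% of all tested genes were lower.

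On the STAT5 side, 17 tested genes included 0 called in the array labelled moderate, 2 higher and 1 lower in profound 1, and 0 in profound 2, with medians of -0.04, -0.06 and -0.02. In profound 1, 2.68% of all tested genes were higher and 4.04% lower. In either direction, 1.31% were called in the array labelled moderate and 2.21% in profound 2. PIM2 and PIM3 encode the other PIM kinases. PIM2 read 7.31, 7.22 and 7.26 in the arrays labelled moderate, profound 1 and profound 2, against 7.28 in control, and its 4 readings lay closer together than those of PIM1. PIM3 was at -0.11, -0.12 and 0.42. The STAT5 feedback gene CISH was at 0.02, 0.13 and 0.10, and SOCS2 at -0.05, -0.07 and 0.06. SOCS3, a feedback inhibitor of cytokine receptors, was at 0.10, -0.62 and -0.11. STAT5A was at 0.08, 0.75 and 0.04, and the repressor gene BCL6 at 0.56, 1.22 and 0.00, both highest in profound 1. OSM, the oncostatin M gene, was at 0.26, -0.45 and -0.41 and ID1 at -0.43, -0.51 and 0.31. Of 14 tested PI3K and AKT genes, 1 was called against control, TXNIP, a glucose-uptake regulator gene, which was higher in profound 1 (0.75) and at 0.09 and 0.56 in the arrays labelled moderate and profound 2. PIK3R1 was at 0.56 and PDK1 at 0.56 in profound 1, FOXO3 was at -0.56 in the array labelled moderate, and the list medians were 0.05, 0.04 and 0.04. By its symbol PDK1 is a pyruvate dehydrogenase kinase gene, not that of the kinase activating AKT, though counted among the 14. Profound 1 was also called higher than the array labelled moderate in FOXO3 (0.69) and TXNIP (0.66), where 1.65% of all tested genes were higher. It was called higher than profound 2 in PDK1 (0.59), where 2.06% were. Of the 17 STAT5 genes, 2 were higher and 2 lower in profound 1 than in the array labelled moderate, where 3.49% of all tested genes were lower. In profound 1 against profound 2, 2 of the 17 were higher and 1 lower, where 2.95% of all tested genes were lower.

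**Figure D4:**
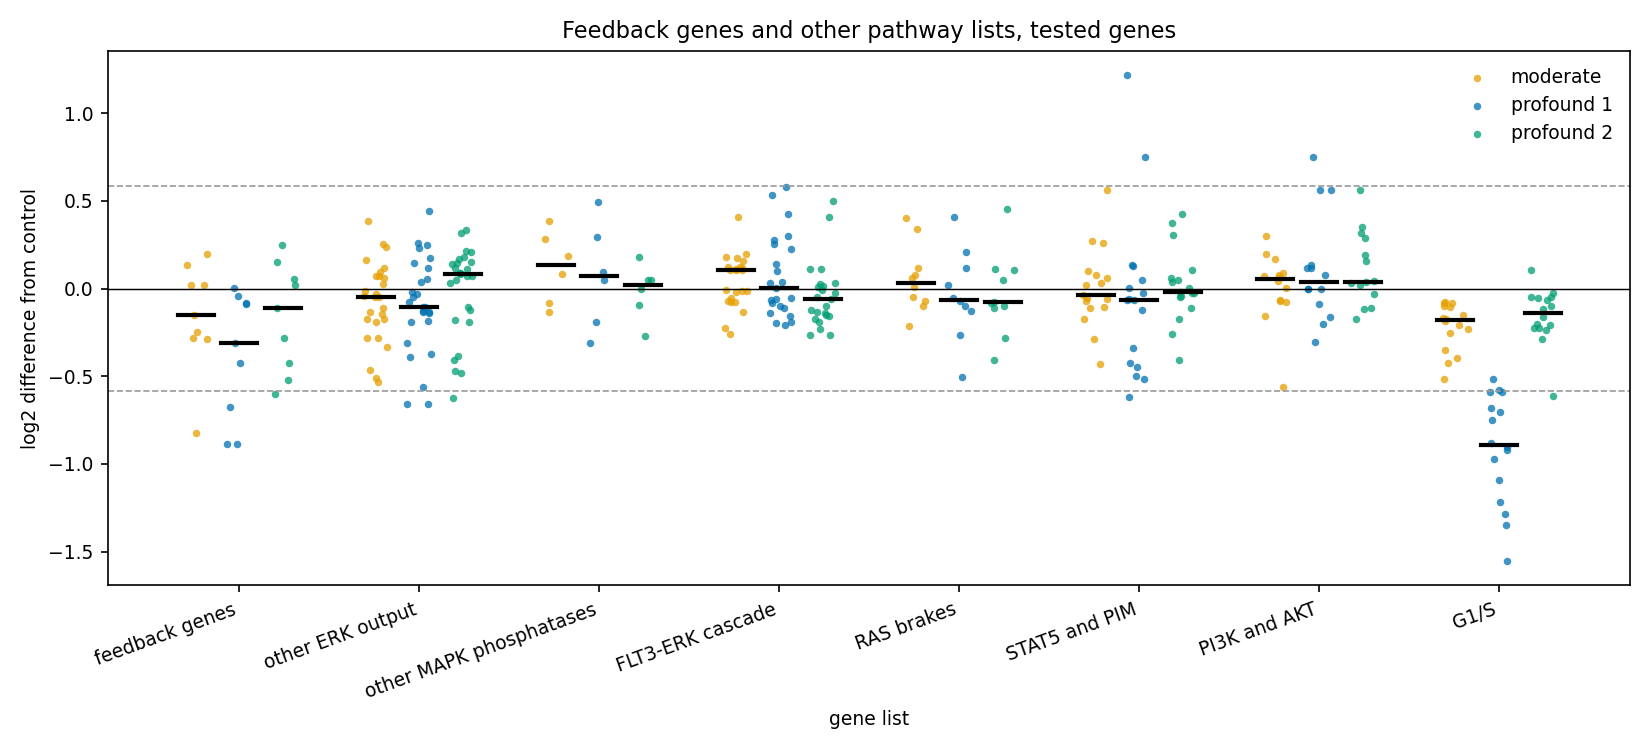
Difference in log2 signal from control (vertical axis) of the tested genes of 8 lists (horizontal axis), with 1 point per gene, a black bar at the median of each list and dashed lines at 1.5-fold, for the arrays labelled moderate, profound 1 and profound 2. The G1/S genes in profound 1 have a median of -0.89, whereas the feedback and output genes (labelled feedback genes) have medians of -0.15, -0.31 and -0.11.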

How the data were processed

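Each of 4 hairpins in MV4-11 cells was measured on 1 array. The deposited values are log2 signals of 53617 probe sets, which per the submitters' processing notes the authors made by RMA, using Affymetrix Expression Console 1.3.1 and also Transcriptome Analysis Console 1.0. RMA equalises the arrays' distributions and compresses the differences of dim probe sets, so a shift of most genes cannot be seen. Its settings are, like the genome build, not given in the sources used here. Array medians were 3.07 to 3.09, and 0 columns were unused.

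Groups follow the genotype labels. Of the probe sets, 23871 have 1 gene symbol, 1842 several and 27904 none listed. Symbols matched RefSeq (GRCh38.p14) unchanged for 23214, 88 by Entrez ID and 565 by synonym, and 4 were kept as listed. Tested were 12519 of 17067 protein-coding genes, those above the table median (3.08) in at least 1 array, the brightest probe set of each. Robust SDs used 6 level classes. Named genes are the members, up to 3 genes with the largest difference in each list and comparison, 9 fixed pathway genes and RUNX1, and the 5 closest profiles to the member of widest range. The members and lists were chosen with earlier results of these data known. On simulated data the size rule was tested for recovery of known changes (Python 3.11.15). Alternatives were a 2-fold rule, the mean of probe sets, median centring, cyclic loess (limma 3.58.1) and 3 other filters.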

Additional observations from a re-analysis of the deposited data

How the results depend on the processing

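No paired analysis was possible because each group holds 1 array. For the same reason no array could be left out of a comparison. At 2-fold in place of 1.5-fold, 0 members were called in any of the 6 comparisons. The filter at the 75th percentile of the table leaves DUSP6, EGR1 and PIM1 and takes out DUSP4, so that 0 members were called in the array labelled moderate against control, 2 in profound 1 and 0 in profound 2. Under it the member medians were -0.68 in profound 1 and -0.42 in profound 2 against control, -0.56 in profound 1 and -0.24 in profound 2 against moderate. With no filter the median of profound 1 against control was -0.20, since SPRED1 enters. The mean in place of the median gave -0.22 for profound 1 and -0.0057 for profound 2 against moderate. After the mean of probe sets, median centring and cyclic loess, all 180 recomputed member differences moved by at most 0.05 log2 units and 0 called ones changed sign. Each member has a single probe set, so the mean of probe sets could not move any of them. Median centring moves all members of a comparison by the same amount, so only cyclic loess could move members singly. The calls of DUSP4, EGR1 and PIM1 against control were the same genes under these 3 settings. What limits these data is 1 array per hairpin and, for DUSP4, DUSP5, SPRY4 and SPRED1, signals near the median of the table.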
